A study of Homo sapiens with 9 samples.

Results

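The complement system and the clotting cascade are the plasma protease systems that hepatocytes make and secrete, and 44 of their genes were followed in HepG2 cells, a human liver cancer cell line, after TRIB3 knockdown. The genes were taken by symbol, as components and regulators of complement (24 genes) and as clotting and fibrinolysis factors with their receptors and inhibitors (20 genes), from a table of 24204 gene symbols. Serpins and fibrinogen chains were left out of the set and are given with the other genes of these cascades. The rule uses symbols and no measured value, but it was written with earlier results of these data known.

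In complement, the classical pathway (started by C1R and C1S) and the lectin pathway (started by MBL2 and the MASP proteases) cleave C4 and C2, the alternative pathway runs through CFB and CFD, and all of them meet at C3, then C5, then the pore built from C6, C8 and C9. Host cells carry CD46, CD55 and CD59, which stop complement on their own surface. In clotting, tissue factor (F3) with factor VII starts a chain through factors X and V that turns prothrombin (F2) into thrombin, and plasmin, made from plasminogen (PLG), dissolves the clot again. Most of these proteins in plasma come from the liver.

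RNA was sequenced from 9 libraries, 3 from each of 3 groups of HepG2 cells. The cells had been infected with lentivirus carrying a control hairpin (shCtrl) or either of 2 hairpins against TRIB3 (shTRIB3-1 and shTRIB3-2) for 48 h and then kept in puromycin for another 48 h, and all groups were grown in high-glucose DMEM with serum. TRIB3 encodes a pseudokinase of the amino acid stress response, and the comparisons ask which transcripts differ when it is lowered. The labels name no glutamine withdrawal, while the study's methods describe RNA of glutamine-deprived cells, in a passage shared with its glutamine withdrawal experiment. The study's discussion places altered repair-gene expression after TRIB3 depletion in cells that were not glutamine-deprived, without naming these libraries. The medium at harvest thus stays uncertain for all 9 libraries. This is a single transformed line with no other cell type in the dish, and nothing says that the 3 libraries of a group came from separate cultures, so p-values measure the spread between these libraries, which may be technical. In bulk RNA, a lower level in every cell and fewer cells with that transcript cannot be told apart.

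Values are FPKM, fragments scaled to gene length and library size, so levels may be compared between genes. Library totals ran from 34206726 to 36311029 fragments. Mitochondrial genes took 5.295 to 6.103% of fragments in shCtrl, 6.286 to 7.008% in shTRIB3-1 and 6.519 to 7.224% in shTRIB3-2. Of the markers of a liver parenchymal line, AFP, GPC3, KRT8 and KRT18 among them, 13 of 13 were at or above 1 FPKM in every library. Their summed level was 9686 to 10299 FPKM in shCtrl, 9868 to 10273 in shTRIB3-1 and 11984 to 12344 in shTRIB3-2. ALB was the highest of them, at a mean of 5644 FPKM over the 9 libraries. Of the endothelial markers, 7 of 8 stayed under 1 FPKM in every library, PECAM1, CDH5 and VWF among them, and the sum of the 8 was 0.609 to 0.784 FPKM in shCtrl, 6.84 to 7.02 in shTRIB3-1 and 3.37 to 3.63 in shTRIB3-2, mostly LYVE1. Leukocyte markers were under 1 FPKM in every library in 5 of 8 cases, PTPRC and CSF1R among them, and CD68, CD14 and AIF1 were not. Their sums were 30.4 to 40.2 FPKM, mostly CD68. Stellate markers were under 1 FPKM in 6 of 7 cases (sums of 39.3 to 63.1, mostly ACTA2), as were both platelet markers measured. Cholangiocyte markers, of which KRT7 and CFTR were under 1 FPKM, summed to 426 to 431 FPKM in shCtrl, 780.2 to 821 in shTRIB3-1 and 793 to 807 in shTRIB3-2, mostly KRT19. The part of these shifts in the results that follow was not tested.

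TRIB3 itself, on chr20:362835-397559, was at 67.9, 65.8 and 66.6 FPKM in the shCtrl libraries, at 34.1, 32.7 and 34 in shTRIB3-1 and at 20.6, 20.7 and 20.4 in shTRIB3-2. The groups did not overlap, and the second hairpin left less TRIB3 than the first. The log2 fold change was -0.99 (SE 0.0301) for shTRIB3-1 and -1.70 for shTRIB3-2 against shCtrl, with adjusted p = 5.3e-11 and 5.39e-13 from limma. Fold changes here and below are on the scale of log2(FPKM + 0.1), which understates changes of genes with few fragments.

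HepG2 cells expressed most of both cascades. In shCtrl, 7 of the 44 genes had a mean of at least 100 FPKM (C3, VTN, TFPI, F2, CFI, CD46 and CFB), 16 lay between 10 and 100, 13 between 1 and 10, 5 above 0 but under 1, and 3 were at 0 in every control library. Summed over the 44 genes, the shCtrl level was 1894 ± 47.6 FPKM, against 1415 ± 34.5 with shTRIB3-1 and 1755 ± 18.4 with shTRIB3-2 (mean ± SD of 3 libraries, as for all sums and means below). Without C3, the sum was 1494 ± 41.3 FPKM in shCtrl, 1204 ± 29.8 with shTRIB3-1 (80.6% of control) and 1526 ± 10.7 with shTRIB3-2 (102%). The sum was thus lower in shTRIB3-2 only with C3 counted. The 24 complement genes alone summed to 1349 ± 28.5 FPKM in shCtrl and to 946 ± 22.2 and 1166 ± 14.1 in the knockdowns, or 70.1% and 86.5% of the control mean, while the 20 clotting genes stood at 85.9% and 108% of a control sum of 545 ± 19.1. C3 took the first place in each shCtrl library, and VTN in each knockdown library. Between replicates, the median coefficient of variation was 4.52% in shCtrl, 4.88% in shTRIB3-1 and 3.49% in shTRIB3-2, and the widest spread was that of C4B in shCtrl at 29.4%.

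**Figure D1:**
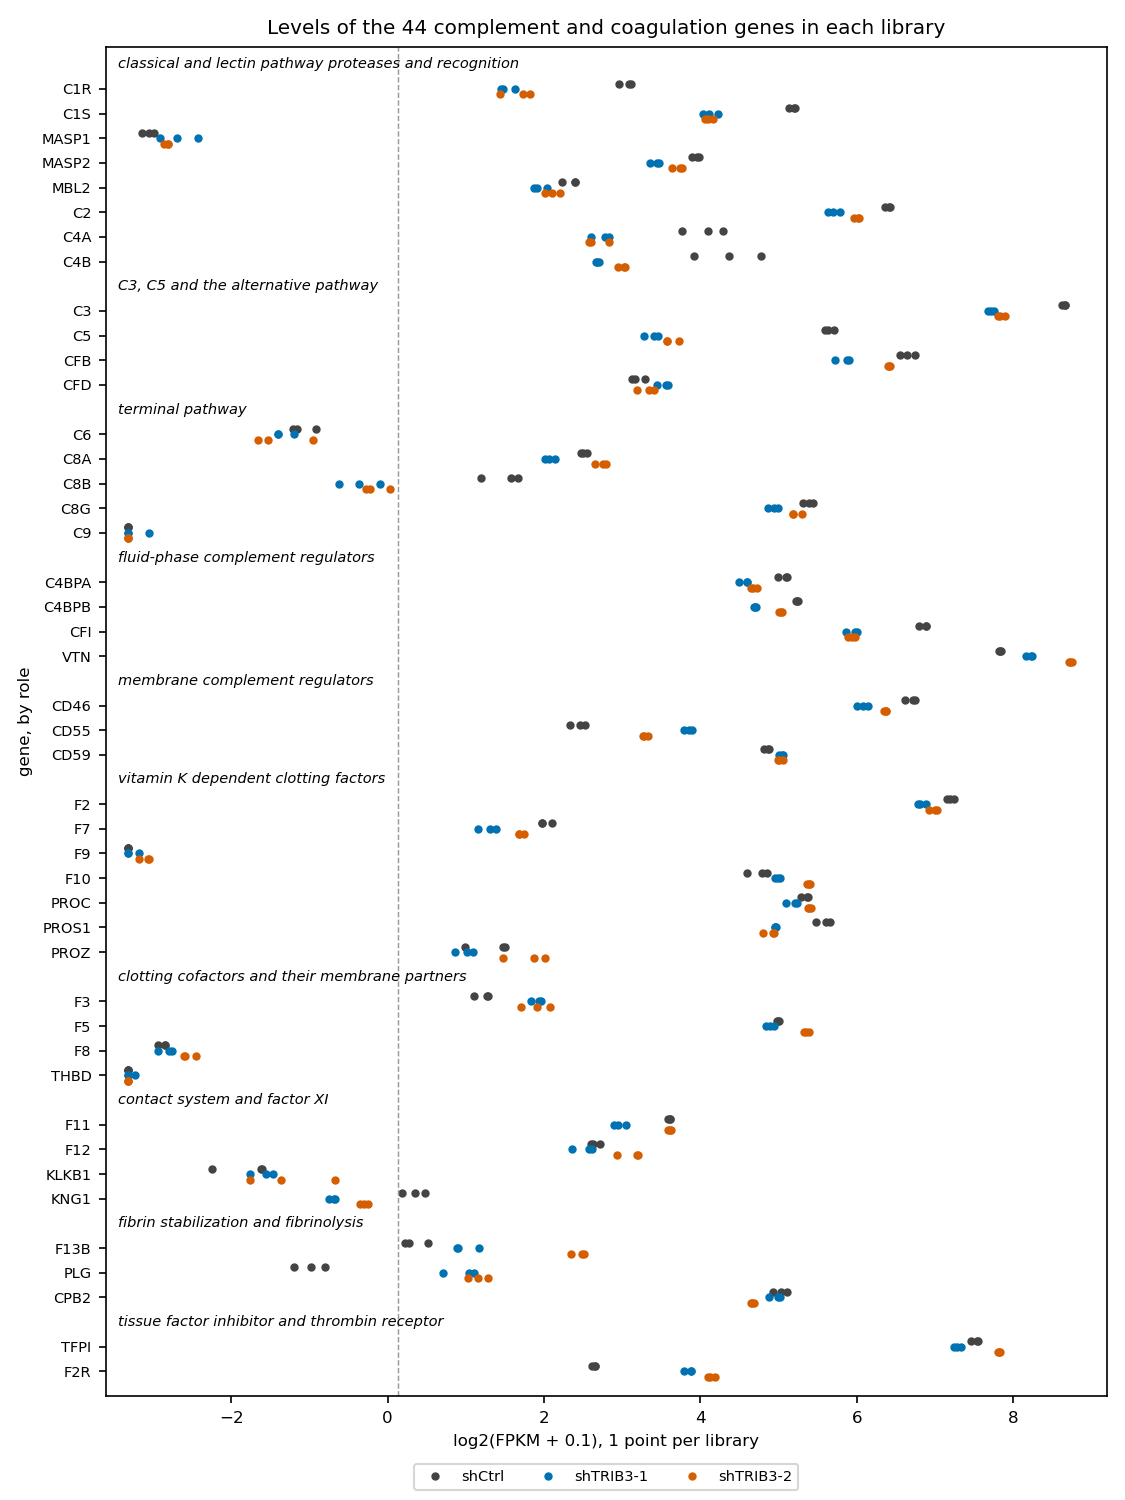
Level of each of the 44 genes in each library, as log2(FPKM + 0.1) on the horizontal axis, with genes by role on the vertical axis, 1 point per library and the dashed line at 1 FPKM. C3 at 393 to 404 FPKM is the rightmost gene in shCtrl and VTN at 419.9 to 431 FPKM the rightmost in shTRIB3-2, while C9, F9 and THBD sit at the left edge.

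Most complement genes were lower in knockdown cells, CD55, VTN and CD59 were higher with both hairpins, and the clotting genes went both ways. A gene was tested when it reached 1 FPKM in at least 3 of the 9 libraries, which 37 of the 44 genes did (21 of complement, 16 of clotting). C8B and KNG1 passed only through shCtrl and PLG only through the knockdown libraries, so these 3 had to differ to some extent. Calls needed an adjusted p under 0.05 from limma and a log2 fold change beyond 1 in either direction. For shTRIB3-1 against shCtrl, 10 of the 37 genes were called (27%), against 11.5% of all 11265 tested genes. The 3 called higher were CD55, PLG and F2R, and the 7 called lower were C1R, C1S, C4A, C4B, C5, C8B and KNG1, where 5.39% and 6.10% of all genes were called higher and lower. Counting only genes with a library at 1 FPKM in every group, a choice made after seeing the data, 7 of 34 were called (20.6%), against 8.24% of 10527 genes. For shTRIB3-2 against shCtrl, 9 genes were called (24.3%, against 12.3% of all genes), with F13B, PLG and F2R higher and C1R, C1S, C4A, C4B, C5 and C8B lower (6.06% and 6.27% of all genes). Counted in the restricted way, it was again 7 of 34 (20.6%), against 8.95%. Both comparisons use the same 3 control libraries, so they are not independent of each other.

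At an adjusted p under 0.05 whatever the fold, 9 of the 37 genes were higher, 25 lower and 3 neither in shTRIB3-1, and 13 were higher, 21 lower and 3 neither in shTRIB3-2. By that rule 74.4% of all tested genes passed in the first comparison (32.9% higher, 41.5% lower) and 75.9% in the second (35.4% higher, 40.5% lower). The median log2 fold change of the 37 genes was -0.45 in shTRIB3-1 and -0.21 in shTRIB3-2, beside -0.06 and -0.03 over all tested genes. For the 21 complement genes it was -0.62 and -0.33, and for the 16 clotting genes -0.15 and 0.33. Below, "fell" and "rose" stand for an adjusted p under 0.05 and "called" for the stricter rule.

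**Figure D2:**
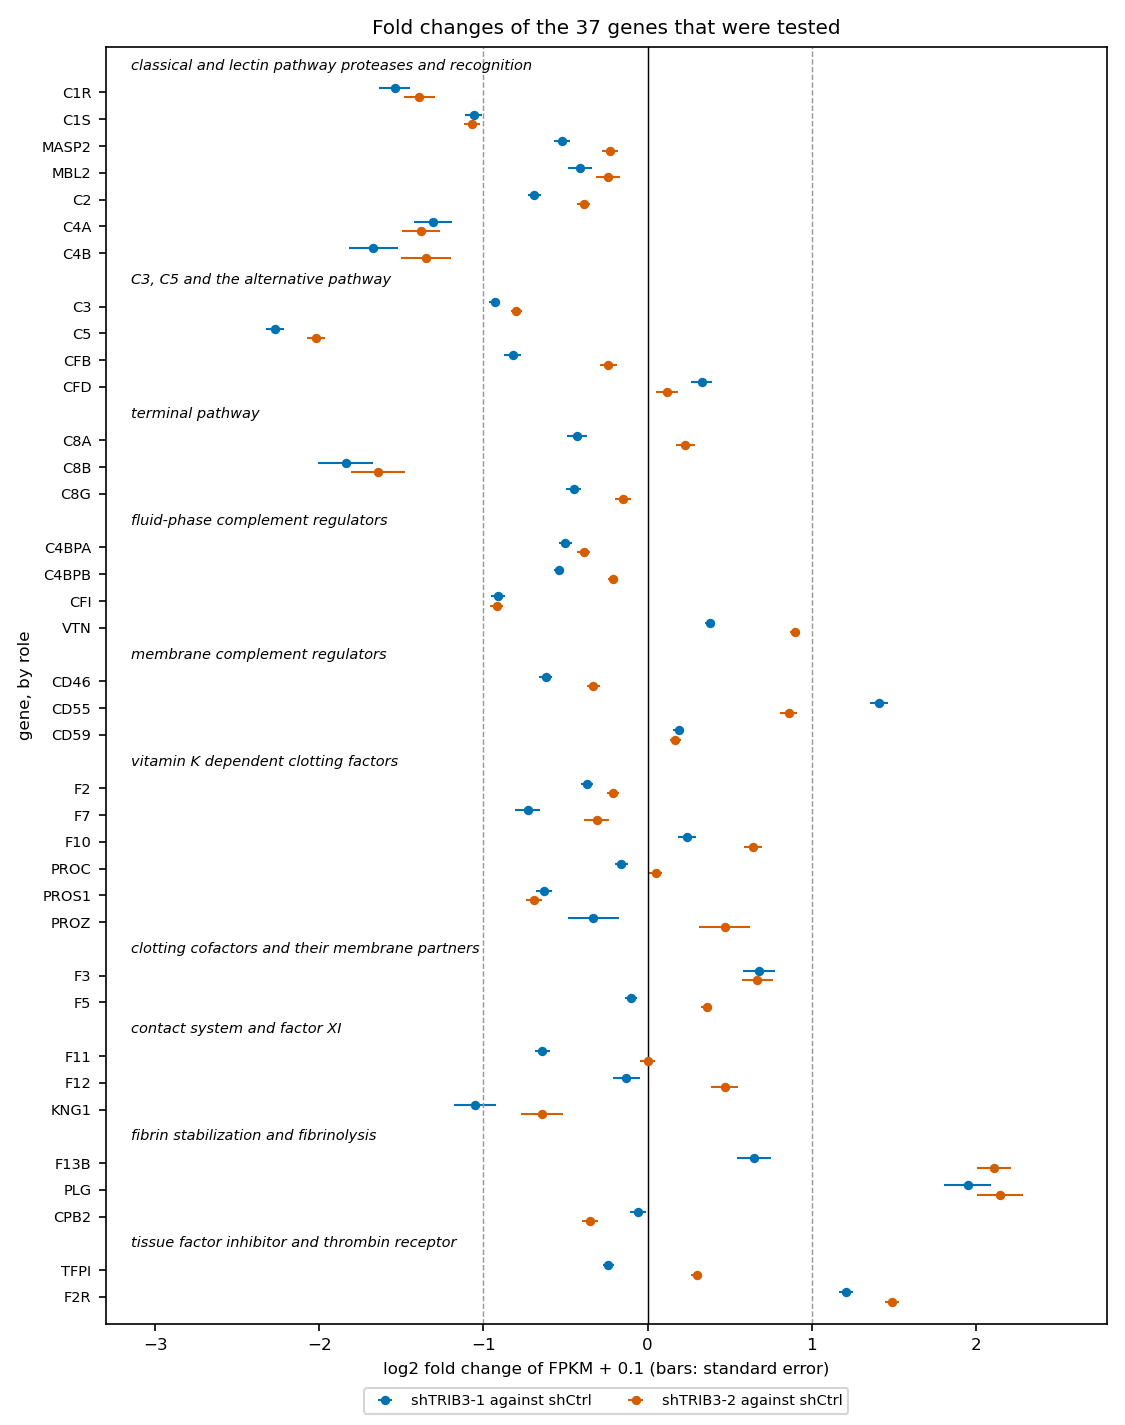
Log2 fold change of FPKM + 0.1 against shCtrl for the 37 tested genes, by role on the vertical axis, with the standard error as a bar, in blue for shTRIB3-1 and orange for shTRIB3-2, and dashed lines at -1 and 1. C5 lies farthest left at -2.27 and -2.02, and PLG farthest right at 1.95 and 2.15. F13B comes next to PLG in shTRIB3-2 (2.11) but not in shTRIB3-1 (0.65).

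Promoter sequence was at hand for 37 of the 44 genes in RefSeq (GRCh38.p14), as windows from 250 bases before to 50 after the annotated start. C1S, C3, C4A, C4B, C8G, F2R and THBD had no window there. Letters read on both strands were TTCNNNGAA for STAT3, the factor through which interleukin-6 acts, in 10 of the 37 windows (27%, against 7.66% of 35116 windows of all genes). The C/EBP letters TTGCNNAA stood in 7 (18.9%, against 10.5%), the HNF1 letters GTTAAT in 7 (18.9%, against 6.88%) and the HNF4 letters CAAAGTCCA or CAAAGGTCA in 3 (8.11%, against 0.792%). The NF-kB motif stood in 1 (2.7%, against 1.91%), the Sp1 letters GGGCGG in 8 (21.6%, against 45%) and TATAAA in 3 (8.11%, against 11.5%). The G-quadruplex pattern of 4 runs of at least 3 G with loops of 1 to 7 bases stood in 8 (21.6%, against 25%), namely C2, CD55, CD59, CFB, F2, F3, F7 and PROS1. Each gene of the set counts with a single window, while the 35116 windows may repeat a gene and were not limited to genes expressed here. The paired shares are therefore not counted alike. STAT3 letters are palindromic and match on both strands at once, and Sp1 letters can lie inside the G-quadruplex pattern. A match is a run of letters and not a site in use, and the RNA data do not test these factors.

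The 250 bases before the start are shown for 6 genes on which the results turn, 5′ to 3′ on the gene's own strand, with capitals for STAT3, C/EBP, HNF1, HNF4, NF-kB and G-quadruplex letters (Sp1 and TATA letters are left in lower case). C1R (minus strand, chr12:7092446-7092695) and C5 (minus strand, chr9:121074866-121075115) were called lower in each comparison. CFB (plus strand, chr6:31945845-31946094) and VTN (minus strand, chr17:28370308-28370557) both hold STAT3 letters and moved in opposite directions. CD55 (plus strand, chr1:207321428-207321677) and F13B (minus strand, chr1:197067261-197067510) rose. The starts used are those of RefSeq. The stretches of C5, CFB and VTN lie inside the GENCODE gene spans given below, and those of C1R and CD55 partly so.
C1R: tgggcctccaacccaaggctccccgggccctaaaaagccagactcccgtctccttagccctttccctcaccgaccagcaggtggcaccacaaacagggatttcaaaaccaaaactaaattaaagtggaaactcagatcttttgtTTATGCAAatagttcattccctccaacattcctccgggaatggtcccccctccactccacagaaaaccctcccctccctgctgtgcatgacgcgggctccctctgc
C5: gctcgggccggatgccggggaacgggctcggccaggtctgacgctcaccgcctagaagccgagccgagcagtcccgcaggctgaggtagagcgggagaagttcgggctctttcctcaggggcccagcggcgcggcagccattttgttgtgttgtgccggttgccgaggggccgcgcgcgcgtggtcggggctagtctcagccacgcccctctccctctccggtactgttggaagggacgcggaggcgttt
CFB: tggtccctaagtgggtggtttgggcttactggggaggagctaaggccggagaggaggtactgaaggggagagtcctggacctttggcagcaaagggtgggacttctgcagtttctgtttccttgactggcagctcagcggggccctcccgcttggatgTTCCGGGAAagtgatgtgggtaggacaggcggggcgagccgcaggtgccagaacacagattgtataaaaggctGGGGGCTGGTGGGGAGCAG
VTN: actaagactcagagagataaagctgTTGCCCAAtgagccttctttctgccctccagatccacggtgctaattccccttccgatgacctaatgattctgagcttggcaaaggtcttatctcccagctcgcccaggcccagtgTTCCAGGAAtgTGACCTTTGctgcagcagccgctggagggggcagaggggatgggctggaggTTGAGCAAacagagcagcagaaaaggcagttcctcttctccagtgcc
CD55: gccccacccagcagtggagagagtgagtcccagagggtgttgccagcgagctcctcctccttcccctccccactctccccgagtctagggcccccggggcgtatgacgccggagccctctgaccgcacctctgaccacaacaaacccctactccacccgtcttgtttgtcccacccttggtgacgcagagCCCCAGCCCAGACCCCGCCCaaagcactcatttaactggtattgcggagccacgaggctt
F13B: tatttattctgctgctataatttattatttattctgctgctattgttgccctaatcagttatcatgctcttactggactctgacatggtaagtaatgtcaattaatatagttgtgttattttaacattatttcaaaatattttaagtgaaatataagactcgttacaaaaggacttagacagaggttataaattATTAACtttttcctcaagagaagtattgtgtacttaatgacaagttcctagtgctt
C1R has C/EBP letters, C5 none of the marked letters, VTN has STAT3, HNF4 and C/EBP letters, F13B an HNF1 run and CD55 a G-quadruplex pattern on the opposite strand. The capitals at the 3′ end of CFB are the start of a G-quadruplex pattern that runs on past the end of the printed stretch.

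The proteases that start the classical pathway fell in both knockdowns, together with C4, while the lectin genes fell less. Of the 8 genes of this role 7 were tested. Each of the 7 fell in each comparison, where 41.5% and 40.5% of all tested genes fell. In each comparison 4 were called (57.1%, against 11.5% and 12.3% of all tested genes). C4A and C4B, which can share reads, are among these 4. The summed shCtrl level of the 8 genes was 187 ± 2.67 FPKM, against 99.7 ± 3.55 with shTRIB3-1 (53.4% of control) and 116 ± 3.17 with shTRIB3-2 (62.1%). C1R (chr12:7080214-7092540), the protease that cleaves C1S within the C1 complex, was at 8.54, 7.71 and 8.41 FPKM in shCtrl, at 2.68, 2.63 and 3.01 in shTRIB3-1 and at 3.45, 2.62 and 3.21 in shTRIB3-2. The control libraries lay above the knockdown libraries with no overlap. Its log2 fold change was -1.54 (SE 0.095, adjusted p = 2.3e-08) for shTRIB3-1 and -1.39 (adjusted p = 4.91e-08) for shTRIB3-2. Its promoter is the C/EBP-bearing sequence above. C1S (chr12:6988259-7071032), which cleaves C4 and C2 and lies 9.18 kb from C1R, was at 34.9, 36.7 and 37 FPKM in shCtrl, 16.3, 18.6 and 17.1 in shTRIB3-1 and 17.9, 16.6 and 17.1 in shTRIB3-2. The groups against shCtrl did not overlap, and the knockdowns overlapped each other. C1S differed by -1.06 (SE 0.0497, adjusted p = 1.86e-09) and -1.07 (adjusted p = 1.41e-09), close to the fold threshold on the log2 scale, and with libraries centred on their medians the first was -0.978 and no longer called.

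C4A and C4B (12.1 kb apart, chr6:31982057-32002681 and chr6:32014795-32035418) encode near-identical forms of C4, the protein that C1S cleaves, and reads can be split between them, so their separate values are uncertain. C4A was at 13.5, 19.4 and 17 FPKM in shCtrl, 6.8, 5.97 and 7.03 in shTRIB3-1 and 5.95, 7.01 and 5.85 in shTRIB3-2. C4B was at 27.4, 20.6 and 15 FPKM in shCtrl, 6.26, 6.39 and 6.31 in shTRIB3-1 and 8.06, 7.59 and 8.08 in shTRIB3-2. The control library with the most C4B had the least C4A. Added together, they stood at 37.6 ± 4.82 FPKM in shCtrl, against 12.9 ± 0.499 with shTRIB3-1 (34.3% of control) and 14.2 ± 0.364 with shTRIB3-2 (37.7%). The log2 fold change of C4A was -1.31 (SE 0.116, adjusted p = 6.06e-07) and -1.38 (adjusted p = 3.22e-07), and that of C4B -1.67 (SE 0.15, adjusted p = 6.84e-07) and -1.35 (adjusted p = 4.22e-06). C2 (chr6:31897785-31945673), whose product pairs with C4 fragments as the C3-cleaving enzyme, was at 81.8, 85 and 85.8 FPKM in shCtrl, 51.8, 49.7 and 55.1 in shTRIB3-1 and 65.4, 62.2 and 64.7 in shTRIB3-2. All 3 groups were separate, in the order shCtrl, shTRIB3-2, shTRIB3-1. C2 fell by 0.69 (SE 0.0397, adjusted p = 1.19e-08) and by 0.39 (adjusted p = 1.74e-06) on the log2 scale. MASP2, the lectin pathway protease, went from a mean of 15.3 FPKM to 10.7 and 13.1 (log2 fold change -0.52 and -0.23), and MBL2, the mannose-binding lectin, from 4.99 to 3.74 and 4.21 (-0.41 and -0.24). MASP1 was not tested, with 5 to 10 fragments per library in shCtrl, 12 to 32 in shTRIB3-1 and 14 to 16 in shTRIB3-2.

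C3 and C5, on which the pathways meet, fell in both knockdowns, C5 the most of the 37 genes. Together with CFB and CFD they summed to 560.2 ± 14.3 FPKM in shCtrl, against 289 ± 9.59 with shTRIB3-1 (51.6%) and 337 ± 9.66 with shTRIB3-2 (60.1%). C5 (chr9:120932987-121075195), whose fragments call in neutrophils and begin the membrane pore, was at 48.1, 49.7 and 52.4 FPKM in shCtrl, 10.9, 9.61 and 10.6 in shTRIB3-1 and 13.1, 11.8 and 11.9 in shTRIB3-2. These values rest on 10260 to 11180 fragments per library in shCtrl and on 1961 to 2666 in the knockdowns. No knockdown library came near the controls, and the mean was 20.7% and 24.5% of the control mean. C5 differed by -2.27 (SE 0.0557, adjusted p = 1.1e-11) and -2.02 (adjusted p = 1.7e-11) on the log2 scale. C3 (chr19:6677704-6730562), the most abundant of the 44 genes in shCtrl at rank 111 of all symbols by mean FPKM, was at 393, 404 and 404 FPKM in shCtrl, 216, 204 and 211 in shTRIB3-1 and 238, 228 and 223 in shTRIB3-2. The drop was separate from the controls in every library but stayed within the fold threshold. It came to -0.93 (SE 0.0339, adjusted p = 2.17e-10) and -0.80 (adjusted p = 5.92e-10) on the log2 scale.

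The alternative pathway genes differed between the hairpins. CFB (chr6:31945650-31952086), the protease of the alternative C3-cleaving enzyme, was at 93.8, 99.99 and 108 FPKM in shCtrl, 58.5, 52.9 and 59.5 in shTRIB3-1 and 86, 85.3 and 84.1 in shTRIB3-2. The second hairpin lay between the first and the control with no overlap. CFB fell by 0.82 (SE 0.0519, adjusted p = 2.9e-08) in shTRIB3-1 and by 0.24 (adjusted p = 0.00126) in shTRIB3-2 on the log2 scale. In the annotation CFB shares 42.8% of its exon bases, and C2 25.8%, with other genes on the same strand. The ends of C2 and CFB themselves overlap by 24 bases. The annotated exons are longer than the lengths behind the FPKM values (5312 against 2476 bases for CFB, 7151 against 3698 for C2). How far these shares bear on the counting is therefore uncertain. CFD, the protease that activates CFB, was 9.05 FPKM in shCtrl, 11.4 in shTRIB3-1 (log2 fold change 0.33, adjusted p = 0.000589) and 9.87 in shTRIB3-2 (0.12, adjusted p = 0.111). It was the one gene of these 4 that was not lower.

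In the terminal pathway, the 3 chains of C8, which join in equal numbers in the protein, had different values. C8B (chr1:56929207-56974383) was at 2.18, 2.9 and 3.09 FPKM in shCtrl, 0.837, 0.553 and 0.678 in shTRIB3-1 and 0.758, 0.723 and 0.926 in shTRIB3-2, from 202 to 286 fragments per control library and 49 to 84 per knockdown library. It was lower in every knockdown library, with a log2 fold change of -1.84 (SE 0.165, adjusted p = 6.71e-07) and -1.64 (adjusted p = 1.75e-06). C8A, whose gene lies 11 kb away on the other strand, went from 5.59 FPKM to 4.11 (-0.43) in shTRIB3-1 and 6.56 (0.23) in shTRIB3-2, and C8G, a small carrier-like chain, from 41.6 FPKM to 30.5 (-0.45) and 37.4 (-0.15). C8B was thus called in each comparison, while neither C8A nor C8G was. But C8B passed the filter only through shCtrl, so it had to differ to some extent, unlike the other chains. With libraries centred on their medians, C8G in shTRIB3-2 no longer passed (-0.102, adjusted p = 0.0719). C6 stayed under the filter at 34 to 70 fragments per library. C9, which forms the wall of the pore, had 0 fragments in 8 libraries and 1 in the other, and 0 fragments in a control library allow a level of up to 0.0605 FPKM, for counting error alone.

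Among the soluble regulators, CFI and both chains of C4b-binding protein fell while vitronectin rose. Summed, the 4 genes stood at 414 ± 7.54 FPKM in shCtrl, against 407 ± 12.6 with shTRIB3-1 and 544 ± 4.15 with shTRIB3-2. VTN (chr17:28367284-28373091), a plasma and matrix protein that blocks insertion of the pore, was at 225, 228 and 229 FPKM in shCtrl, 303, 286 and 299 in shTRIB3-1 and 424, 431 and 419.9 in shTRIB3-2. The groups formed separate steps, and its rank among all symbols moved from 189 in shCtrl to 158 and 88. VTN rose by 0.38 (SE 0.0301, adjusted p = 2.21e-07) and 0.90 (adjusted p = 7.78e-11) without reaching the fold threshold, which shTRIB3-2 passed under quantile normalization (1.037). CFI (chr4:109731008-109802150), the protease that cuts C3b and C4b, was at 111, 118 and 118 FPKM in shCtrl, 63.9, 58.2 and 62.6 in shTRIB3-1 and 62.9, 59.1 and 61.5 in shTRIB3-2. The knockdowns overlapped each other and neither overlapped the control. CFI fell by 0.91 (SE 0.0409, adjusted p = 1.34e-09) and by 0.92 (adjusted p = 9.97e-10) on the log2 scale. C4BPA went from 33.4 FPKM to 23.6 and 25.6 (-0.50 and -0.39) and its neighbour C4BPB, 4.24 kb away, from 37.6 to 25.9 and 32.6 (-0.54 and -0.21).

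The 3 regulators that cells carry on their own membrane went different ways. CD55 (chr1:207321519-207386804), or decay-accelerating factor, takes C3-cleaving enzymes apart and was at 5.65, 4.96 and 5.38 FPKM in shCtrl, 14.4, 14.8 and 13.7 in shTRIB3-1 and 9.64, 9.56 and 9.99 in shTRIB3-2. Every knockdown library was above every control library, and shTRIB3-1 was above shTRIB3-2. It rose by 1.41 (SE 0.0535, adjusted p = 3.08e-10) and by 0.86 (adjusted p = 2.11e-08), called in shTRIB3-1 alone, and the difference between the hairpins was -0.55 (adjusted p = 7.18e-06). CD46 (chr1:207752037-207795513), a cofactor for CFI whose gene lies 365 kb from CD55, was at 98.3, 106 and 107 FPKM in shCtrl, 64.3, 67.7 and 70.8 in shTRIB3-1 and 81.4, 82.7 and 82.5 in shTRIB3-2. It fell where CD55 rose, by 0.62 (SE 0.0406, adjusted p = 4.12e-08) and by 0.33 (adjusted p = 1.01e-05). CD59, which blocks C9, went from 28.7 FPKM to 32.7 and 32.3 (0.19 and 0.17, adjusted p = 0.00022 and 0.000451). By level, CD46 remained the most abundant of the 3 in each group.

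**Figure D3:**
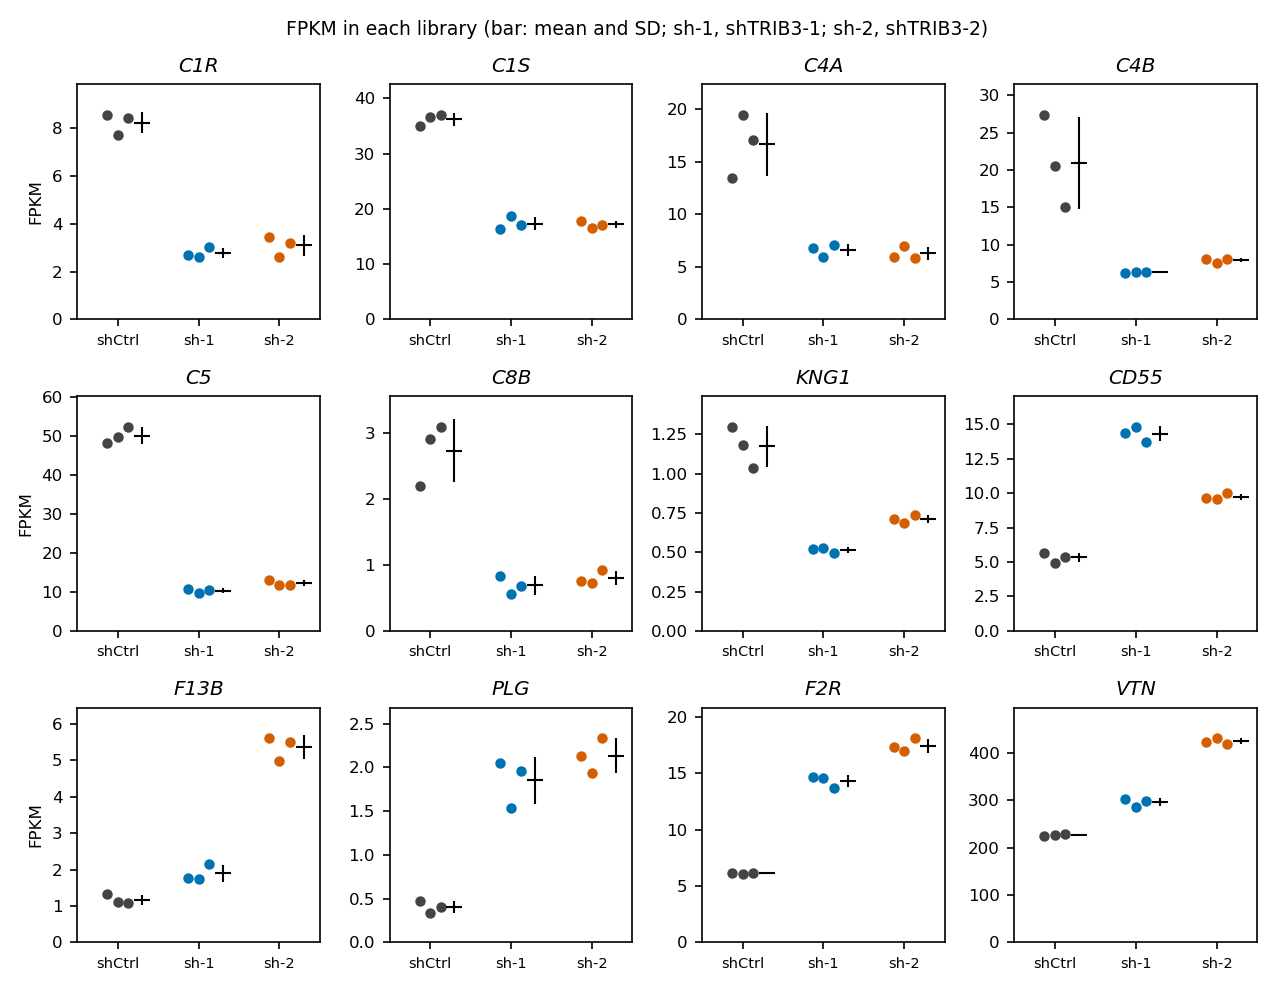
FPKM in each library for the 11 genes called in at least 1 comparison and for VTN, with 1 panel per gene, the vertical axis starting at 0, points for the 3 libraries of each group and a bar for the mean and SD. C5 drops from 48.1 to 52.4 FPKM in shCtrl to 13.1 or less, F13B stands at 4.99 to 5.6 FPKM in shTRIB3-2 alone, and C4A and C4B are the panels with the widest control spread.

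The vitamin K dependent factors, proteases and cofactors that need carboxylated glutamates, had 6 of 7 genes tested and none called, where 11.5% and 12.3% of all tested genes were called, a share that comes to less than 1 gene in 6. The 6 had log2 fold changes with medians of -0.35 and -0.08. F2 (chr11:46719196-46739506), prothrombin, was at 142, 146 and 151 FPKM in shCtrl, 118, 110.5 and 112 in shTRIB3-1 and 129.7, 128 and 121 in shTRIB3-2. It was lower in every knockdown library, by 0.37 (SE 0.0372, adjusted p = 1.82e-06) and 0.21 (adjusted p = 0.000205) on the log2 scale. F7, which tissue factor binds, went from 3.95 FPKM to 2.34 and 3.16 (-0.73 and -0.31), while F10, the next protease in the chain and 2.11 kb from F7, rose from 26.8 FPKM to 31.6 and 41.7 (0.24 and 0.64). PROZ, 9.12 kb beyond F10, was 2.43 FPKM in shCtrl, 1.89 in shTRIB3-1 (-0.33, adjusted p = 0.0681) and 3.4 in shTRIB3-2 (0.47, adjusted p = 0.0155). The first of these passed with TPM (-0.397, adjusted p = 0.0395), without shCtrl replicate 1 (-0.499, adjusted p = 0.00711) and without shTRIB3-2 replicate 2 (adjusted p = 0.0398). The last value missed the threshold with no filter on low genes (adjusted p = 0.0603), without shCtrl replicate 1 (0.0704), without shTRIB3-2 replicate 1 (0.0502) and without shTRIB3-2 replicate 3 (0.0738). Of the anticoagulant pair, PROC (protein C) was 40.5 FPKM in shCtrl, 36.1 (-0.16, adjusted p = 0.0025, but 0.0879 with libraries centred on their medians) and 42 (0.05, adjusted p = 0.251, but 0.104 and 0.042 with the same centring), and PROS1 (protein S), which has a pseudogene copy that can share its reads, fell from 47.9 FPKM to 30.9 and 29.6 (-0.63 and -0.69). F9 was almost silent, with 0 fragments in each shCtrl library (up to 0.0297 FPKM) and at most 2 in a knockdown library.

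Tissue factor and its inhibitor were measured beside the cofactors. F3, tissue factor, rose from 2.24 FPKM to 3.66 and 3.64 (log2 fold change 0.68 and 0.67, adjusted p = 3.54e-05 and 3.91e-05). TFPI (chr2:187464230-187565760), which blocks tissue factor with factor VII and came after C3 and VTN by level in shCtrl, was at 177, 186 and 188 FPKM there, 155, 151 and 161 in shTRIB3-1 and 225, 228 and 226 in shTRIB3-2. The knockdowns lay on opposite sides of the control with no overlap. TFPI fell by 0.24 (SE 0.0337, adjusted p = 4.38e-05) in shTRIB3-1 and rose by 0.30 (adjusted p = 4.54e-06) in shTRIB3-2. F5, the cofactor of factor X, was 31.7 FPKM in shCtrl, 29.5 in shTRIB3-1 (-0.10, adjusted p = 0.0173) and 40.7 in shTRIB3-2 (0.36, adjusted p = 1.19e-06). With libraries centred on their medians the first of these was -0.023 (adjusted p = 0.595), and it also missed the threshold without shCtrl replicate 2 (0.0528) or shTRIB3-1 replicate 2 (0.0765). F8, the haemophilia A cofactor that endothelial cells supply, had 10 to 26 fragments per library, and THBD (thrombomodulin, up to 0.0208 FPKM at 0 fragments) had 1 fragment over the 9 libraries together.

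F2R (chr5:76716126-76735770), the thrombin receptor PAR1, rose in each knockdown. It was at 6.2, 6.04 and 6.19 FPKM in shCtrl, 14.7, 14.6 and 13.7 in shTRIB3-1 and 17.3, 16.9 and 18.1 in shTRIB3-2. The 3 groups were separate, and replicates within a group lay close together. F2R rose by 1.21 (SE 0.0428, adjusted p = 1.73e-10) and 1.49 (adjusted p = 2.25e-11).

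In the contact system, KNG1 (chr3:186717348-186744410), the kininogen from which bradykinin is cut, was at 1.3, 1.18 and 1.04 FPKM in shCtrl, 0.522, 0.528 and 0.493 in shTRIB3-1 and 0.71, 0.684 and 0.74 in shTRIB3-2, from 72 to 195 fragments per library. The groups were separate at this low level, and KNG1 passed the filter only through shCtrl. KNG1 differed by -1.05 (SE 0.128, adjusted p = 1.1e-05), called, and -0.64 (adjusted p = 0.000592), not called. The call in shTRIB3-1 was lost with libraries centred on their medians (-0.965) and with a pseudocount of 1 (-0.519). F11 (factor XI) dropped in shTRIB3-1, from 12.1 to 7.72 FPKM (-0.64, adjusted p = 8.45e-08), and was 12.1 FPKM in shTRIB3-2, where the 95% interval of its log2 fold change ran from -0.10 to 0.10. F12 (factor XII) was 6.16 FPKM in shCtrl, 5.64 (-0.13, adjusted p = 0.181) and 8.58 (0.47, adjusted p = 0.000249). KLKB1 (prekallikrein) was under the filter with 13 to 61 fragments per library, and in the annotation other genes of its strand cover 78% of its exon bases.

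Among the tested complement and clotting genes, the largest rises were those of PLG in each knockdown and of F13B in shTRIB3-2. PLG passed the filter only through the knockdown libraries, so it had to differ to some extent. PLG (chr6:160702194-160754097), plasminogen, was at 0.472, 0.336 and 0.406 FPKM in shCtrl, 2.05, 1.54 and 1.96 in shTRIB3-1 and 2.13, 1.93 and 2.33 in shTRIB3-2, from 52 to 72 fragments per control library and 225 to 349 per knockdown library. No knockdown library overlapped the controls. It rose by 1.95 (SE 0.141, adjusted p = 9.19e-08) and 2.15 (adjusted p = 3.24e-08). PLG has near copies in the genome, LPA among them, so part of its reads may have been split. F13B (chr1:197038741-197067260), the carrier chain of the clot-linking factor XIII, was at 1.33, 1.11 and 1.07 FPKM in shCtrl, 1.78, 1.75 and 2.15 in shTRIB3-1 and 5.6, 4.99 and 5.51 in shTRIB3-2. The groups made separate steps, a short one and then a long one. F13B rose by 0.65 (SE 0.105, adjusted p = 0.00012) and 2.11 (adjusted p = 2.54e-09). CPB2, which slows clot lysis, was 32.4 FPKM in shCtrl, 31.1 (-0.06, adjusted p = 0.292) and 25.3 (-0.35, adjusted p = 2.88e-05).

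The hairpins were then compared with each other, without the control libraries in the contrast. F13B was the single gene of the 37 called (2.7%, against 2.08% of all tested genes, with 0.284% called higher and 1.79% lower), at 1.46 (SE 0.105, adjusted p = 6.08e-07) higher in shTRIB3-2. At an adjusted p under 0.05 whatever the fold, 23 of the 37 were higher in shTRIB3-2, 3 were lower and 11 did not pass, where 45.8% of all tested genes passed (25.1% higher and 20.7% lower). The median difference was 0.28, beside 0.03 over all tested genes. The 3 lower genes were CD55 (-0.55, adjusted p = 7.18e-06), CPB2 (-0.29, adjusted p = 0.000422) and CFD (-0.21, adjusted p = 0.0202). CFD did not pass with no filter (0.061) or without shTRIB3-1 replicate 2 (0.061), shTRIB3-1 replicate 3 (0.0729) or shTRIB3-2 replicate 3 (0.0874). Of the higher genes, C3 (0.12) did not pass with median centring or without shTRIB3-2 replicate 1 (adjusted p = 0.0791 and 0.0513), KNG1 (0.40) in 4 settings (0.0508 to 0.065) and C4BPA (0.12) in 8 (0.0516 to 0.148). The higher ones included PROZ (0.80), C8A (0.66), F11 (0.64), F12 (0.60), CFB (0.58), TFPI (0.54), VTN (0.52) and F5 (0.46). For C1S, CFI and CD59 the difference did not pass, and its 95% interval ran from -0.12 to 0.10, from -0.10 to 0.08 and from -0.09 to 0.05, respectively. TRIB3 itself differed by -0.71 (adjusted p = 9.54e-09) in the same contrast, so TRIB3 was lower in the hairpin in which those 23 genes were higher.

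**Figure D4:**
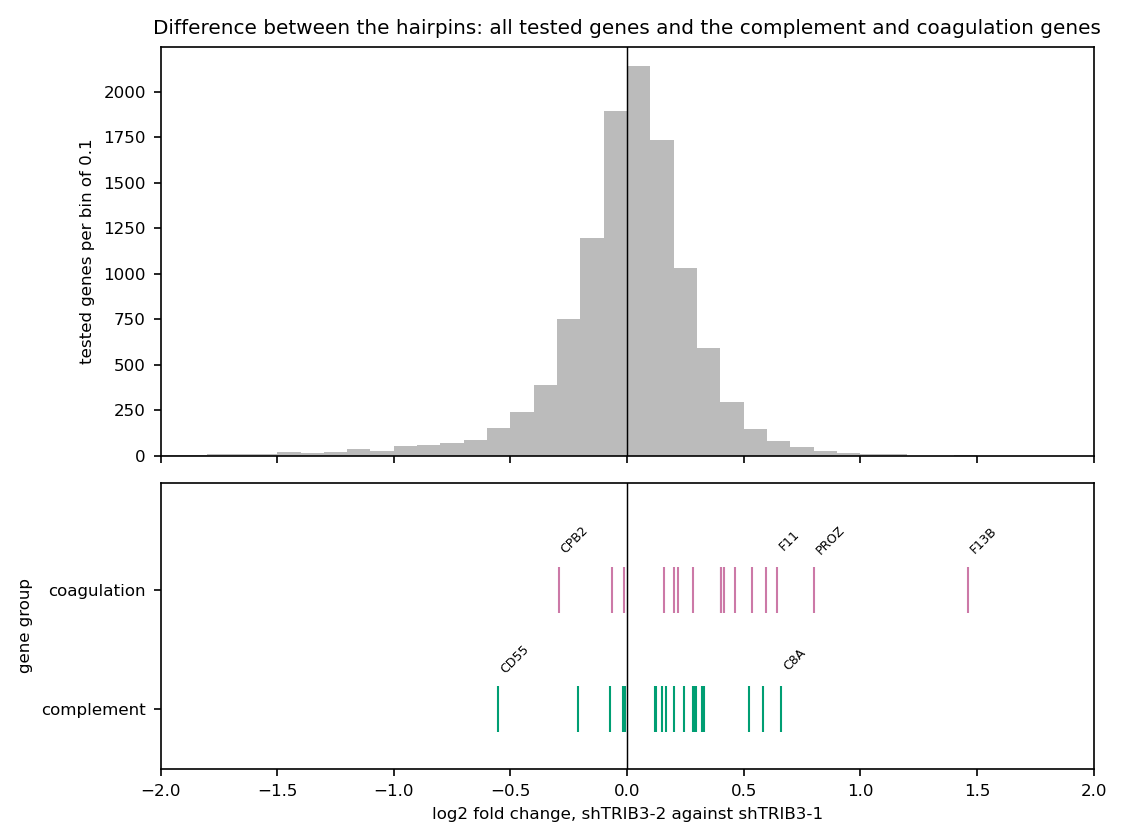
Upper panel, the number of all 11265 tested genes per bin of 0.1 of the log2 fold change of shTRIB3-2 against shTRIB3-1, and lower panel, the same quantity for each of the 37 complement and clotting genes, 1 mark per gene. Most marks lie right of 0 (median 0.28), with F13B at 1.46 on the far right and CD55 at -0.55 on the far left.

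Some of the genes are neighbours on a chromosome, and neighbours did not always move alike. C1R and C1S, 9.18 kb apart, both fell, as did C2, CFB, C4A and C4B within the complement cluster of chromosome 6. C4BPB and C4BPA fell beside CD55, which rose 177 kb away, and CD46 fell on its far side. F7 fell next to F10, which rose, and C8A and C8B differed as above. Counting may not have used strand, and KNG1 (14.1% of exon bases), CFD (14%) and F11 (13.8%) overlap genes on the opposite strand in the annotation. VTN (17.3%), CFI (29.4%), C3 (11.7%) and C1R (11.6%) share exon bases with genes on their own. The annotated exons need not be those counted, as F11 has 3995 exon bases and a length of 7106 behind its FPKM values.

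Other genes of the same systems were read from lists of 145 genes, of which 134 were in the table and 104 were tested. Of these, 7 were called higher and 11 lower in shTRIB3-1 (17.3%, against the 11.5% above), and 7 higher and 8 lower in shTRIB3-2 (14.4%, against 12.3%), with medians of -0.23 and -0.25. Between the hairpins 2 were called (1.92%, against 2.08%), PLAU and SERPINB2. SERPING1 passed the filter only through shCtrl, SERPINB2 only through shTRIB3-1, PLAU only through shTRIB3-2 and PLAUR only through the knockdowns, so each had to differ to some extent, and the first 3 drop out when a library of that group is left out. Counting only genes with a library at 1 FPKM in every group, 15 of 100 were called in shTRIB3-1 (15%, against 8.24%), 12 in shTRIB3-2 (12%, against 8.95%) and 0 between the hairpins. Of 7 other complement genes tested, C1RL was the one called, in shTRIB3-1 (14.3%, against 11.5% of all tested genes). C1RL, a C1R-like protease next to C1R, was lower in shTRIB3-1 (-1.09, adjusted p = 2.19e-09) and was -0.94 in shTRIB3-2. Of 10 serpins that inhibit these proteases, 40% were called in shTRIB3-1 and 30% in shTRIB3-2 (11.5% and 12.3% of all tested genes). These shares include SERPING1 and SERPINB2. SERPING1, the C1 inhibitor that stops C1R and C1S, had 2.31 ± 0.192 FPKM in shCtrl, against 0.352 ± 0.0414 and 0.477 ± 0.122 (log2 fold change -2.42 and -2.08). SERPINA5, the protein C inhibitor, was -1.08, called, and -0.99. SERPINE2, an inhibitor of thrombin, rose from 8.23 to 46.3 and 35.9 FPKM (2.48 and 2.12). SERPINB2, an inhibitor of plasminogen activators, had means of 0.0941, 1.73 and 0.479 FPKM in shCtrl, shTRIB3-1 and shTRIB3-2.

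Fibrinogen, which thrombin turns into fibrin, fell: FGG went from 1159.5 ± 84.1 FPKM to 364 ± 16.1 and 499 ± 12.8 (log2 fold change -1.67 and -1.21) and FGA by -1.55, called, and -0.99, not called. Of the same 11 clotting and lysis genes, 45.5% were called in shTRIB3-1 and 36.4% in shTRIB3-2, PLAUR among them. Over all tested genes these shares, and those to set beside the lists below, were 11.5% and 12.3%. PLAUR, the receptor that holds urokinase at the cell surface, rose by 2.60 and 1.85, and F2RL1, the trypsin receptor PAR2 and kin of F2R, by 2.04 and 2.57 (18.6 FPKM in shCtrl, 76.5 and 110.4 in the knockdowns). PLAU, urokinase itself, had means of 0.736, 0.538 and 1.16 FPKM. Of 11 genes for carboxylation, processing and secretion, VKORC1, which recycles vitamin K, was called lower (-1.33 and -1.12) and ASPH, which hydroxylates aspartate residues, called higher (1.11 and 1.12), 18.2% in each comparison. Of 24 genes that build the lipid anchor carried by CD55 and CD59, PIGM alone was called (4.17% in each comparison, -1.22 and -1.14, from 2.59 to 1.06 and 1.12 FPKM). Of 20 liver transcription factors 4 were called lower in each comparison (20%, against 6.10% and 6.27% of all tested genes), among them CEBPD (-1.47 and -1.80) and NR1H4, the bile acid receptor (-1.45 and -1.40), and none higher. Of 21 genes of cytokine signalling, IL6R, the interleukin-6 receptor, was the one called (4.76% in each comparison, 1.36 and 1.36, from 13 to 33.6 and 33.5 FPKM).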

How the data were processed

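The authors deposited a table of FPKM values by gene symbol and library. STAR (GRCh38, paired reads) is given in the study's methods, and HTSeq and R 3.2.0 are named in the submitters' processing notes. Whether counting used strand is not given in the sources used here, and the labels and the methods name different library kits. From the FPKM steps, whole fragments were recovered for 100% of 172769 values above 0 (within 0.02 of a whole number), giving the library totals. Genes with at least 1 FPKM in at least 3 of 9 libraries (11265 of 24204) were tested as log2(FPKM + 0.1) with limma 3.58.1 in R 4.3.3, with 1 mean per group, all 9 libraries in the fit and the prior variance following the mean level. Tests were two-sided, with Benjamini-Hochberg adjustment over all tested genes. The fit was tested on simulated data. The study's DESeq2 model needs counts and was not used. Symbols were placed on GRCh38 with GENCODE. Members and lists were chosen with earlier results of these data known. Values in every library are given for members called in any comparison or with a group mean of at least 50 FPKM, and of each list the 2 called genes with the largest rise and the 2 with the largest fall are named. Replicate pairs differed beyond counting noise (chi-square per degree of freedom of 3.15 to 7.54). Alternatives changed the pseudocount, the filter, the scaling, the model and the libraries used. Fragments carry no molecular identifiers, so fragment numbers give counting error only.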

Additional observations from a re-analysis of the deposited data

Results flagged for a closer look

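The difference between the hairpins, taken directly as shTRIB3-2 against shTRIB3-1, stood out for 4 genes. C8A differed by 0.66 and TFPI by 0.54 on the log2 scale, and each fell in shTRIB3-1 and rose in shTRIB3-2 against the same control libraries. F5 differed by 0.46 in the same manner, though its fall in shTRIB3-1 did not pass with libraries centred on their medians. F13B rose with both hairpins and differed by 1.46, past the fold threshold between the knockdowns themselves. The cause of these differences was not tested.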

How the results depend on the processing

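Across 20 alternatives, the members called ranged from 7 to 10 for shTRIB3-1 and from 6 to 10 for shTRIB3-2 against shCtrl. The main counts were 10 and 9 of 37 tested. Over genes with a library at 1 FPKM in every group, 7 of 34 were called in each. The share of all genes called is not given for each alternative. A filter at 5 FPKM, which tests fewer genes, gave the low counts of 7 and 6, of 29 tested. This filter also left 0 members called between the hairpins, 9 pathway genes for shTRIB3-2 against shCtrl (15 in the main analysis) and 0 pathway genes between the hairpins (2 in the main analysis). That last count was also 0 with a pseudocount of 1 and over genes with a library at 1 FPKM in every group (an alternative chosen after seeing the data), 1 with median centring and between 0 and 2 when 1 library was left out. In the other settings the pathway count for shTRIB3-2 against shCtrl ran from 11 to 18. Without any 1 shCtrl library, C8B and KNG1 missed the filter, and 8 of 35 tested members were called in each comparison with shCtrl. voom on the recovered fragments called 10, 9 and 1 members.

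Small differences that did not pass changed sign in some settings. With TPM, the difference between the hairpins was 0.018 for C1S, 0.021 for CFI, 0.013 for CD59 and 0.017 for F3, and F11 in shTRIB3-2 against shCtrl was -0.019. CFI was 0.013 with quantile normalization, CPB2 in shTRIB3-1 was 0.021 with median centring, and C4A between the hairpins was 0.134 once summed with C4B, an alternative chosen after seeing the data. When 1 library was left out, the hairpin difference ran from -0.058 to 0.040 for C1S, from -0.050 to 0.018 for CFI and from -0.104 to 0.083 for F3, and F11 in shTRIB3-2 against shCtrl from -0.006 to 0.015. The cause was not tested.

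Libraries with the same replicate number correlated between -0.0742 and 0.0933 in their deviations from the group means, so the numbers were not taken to pair them. With the replicate number as a block, the members called were 10, 9 and 1, as without the pairing. With no filter on low genes, MASP1 in shTRIB3-1 (0.38, adjusted p = 0.0279) and F9 (0.23, adjusted p = 0.0121) and F8 (0.33, adjusted p = 0.0116) in shTRIB3-2 passed limma's test against shCtrl without being called, and these rest on few fragments.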
